A study of Rattus norvegicus with 16 samples.

Results

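Smooth muscle and pericyte genes were followed in the hearts of newborn rats of a strain with inherited cardiac hypertrophy and of its control strain. The set held 10 genes: Acta2, Tagln, Cnn1, Myh11, Smtn, Des, Pdgfrb, Rgs5, Cspg4 and Vtn. A gene counted as measured where a probe set of the array was annotated with its symbol and no other. This held for 9 of the 10, each with 1 probe set, out of 14324 genes named that way. Acta2 had no such probe set and was not analysed here.

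The array study compared the Hypertrophic Heart Rat (HHR), inbred and with hearts the labels call hypertrophic, with the Normal Heart Rat (NHR), labelled normal. No treatment was given, and all animals were 2 days old. Each strain gave 4 females and 4 males, which makes 4 groups, and every array carried 1 unpooled heart sample. The labels describe the tissue both as ventricles freed of the atria and as whole heart. Which litter an animal came from is not recorded in the labels, and strain and litter cannot be told apart. The deposited values are log2 expression values, on which a difference of 1 is a doubling.

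Vessels of the heart are wrapped by mural cells, smooth muscle cells on arteries and pericytes on capillaries. Smooth muscle contracts with its own myosin (Myh11) sliding on smooth muscle actin, to which transgelin (Tagln), calponin (Cnn1) and smoothelin (Smtn) bind. Serum response factor and its partner myocardin switch on most of these contractile genes. Pericytes are recruited to vessels by platelet-derived growth factor (PDGF) from endothelial cells, acting on the receptor encoded by Pdgfrb, and they carry the proteoglycan NG2 (Cspg4). None of the genes is exclusive to mural cells: heart muscle cells hold much desmin (Des), and Tagln and Cnn1 are also made by immature heart muscle cells and activated fibroblasts.

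Promoter sequence is shown for Smtn and Vtn, the pair of genes that differed between the strains and have an entry in the RefSeq promoter table (build GRCr8), which covers 250 bases before to 50 bases after the gene start. The table had entries for 7 of the 10 genes: Acta2, Cnn1, Smtn, Des, Rgs5, Cspg4 and Vtn. Capitals mark matches on either strand to 3 motifs. The first is the GC box, GGGCGG. The E box is CANNTG. The muscle CAT motif is CATTCC, which appears as its reverse complement where it lies on the other strand. The Smtn window is chr14:82644465-82644764 on the minus strand and the Vtn window chr10:63892532-63892831 on the plus strand, both written 5′ to 3′ along the gene.
Smtn: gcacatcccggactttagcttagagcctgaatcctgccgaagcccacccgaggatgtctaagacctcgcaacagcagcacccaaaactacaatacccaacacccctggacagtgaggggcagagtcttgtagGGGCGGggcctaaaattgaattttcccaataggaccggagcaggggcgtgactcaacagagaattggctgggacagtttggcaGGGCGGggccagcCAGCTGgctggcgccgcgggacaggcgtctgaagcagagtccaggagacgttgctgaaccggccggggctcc
Vtn: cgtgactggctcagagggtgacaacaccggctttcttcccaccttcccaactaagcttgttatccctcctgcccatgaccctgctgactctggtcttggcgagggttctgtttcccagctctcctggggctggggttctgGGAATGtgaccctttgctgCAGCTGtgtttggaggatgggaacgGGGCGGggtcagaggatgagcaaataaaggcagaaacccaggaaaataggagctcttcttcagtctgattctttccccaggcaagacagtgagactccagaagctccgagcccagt
The Smtn window had 2 GC boxes, starting 118 and 35 bases before the gene start, and 1 E box at 22 bases. The Vtn window had 1 CATTCC match at 110 bases, 1 E box at 91 bases and 1 GC box at 66 bases. Of all 33469 promoters in the table, 33.1% held a GC box, 72.1% an E box and 14.2% a CATTCC match. None of the 7 windows held an exact match to the CArG box, the site bound by serum response factor, or the letters TATAAA. Near matches were not counted, and the Acta2 window holds the similar stretches ccctatatgg and ccttgtttgg. Over all promoters, 1.64% held an exact CArG match and 14.2% TATAAA. These are matches of letters in a short window, and the marked matches in the Smtn and Vtn windows do not overlap each other.

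All arrays had similar overall signal, with medians of 7.19 to 7.28. The 13 cardiomyocyte markers examined, troponins and cardiac myosins among them, averaged 13.23 to 13.44 per array. The component with the largest share of the variation inside groups held 26.7% of it. On that component NHR female 3, NHR female 4 and NHR male 4 scored 14.4, 15.1 and 22.6. The other NHR arrays lay between -16.9 and 1.74 and the HHR arrays between -3.72 and 7.48. The NHR arrays thus spread to both sides, and NHR female 1 and 2 and NHR male 1 and 2 lay at -16.9 to -11.1. The 3 with the highest scores are called the high-scoring NHR arrays, and results are given with and without them. That choice was made with earlier results of these data known.

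The contractile genes did not move as a block. Tagln rose in HHR, Myh11 and Smtn fell, and Cnn1 did not pass the test. Of the other measured genes Vtn fell, and the pericyte genes Pdgfrb, Rgs5 and Cspg4 and the filament gene Des did not pass. In all 4 of 9 genes (44.4%) passed the strain test, 1 higher and 3 lower. Of the 14324 genes taken by the same rule, 23.1% passed (11.8% higher, 11.2% lower). The background over all 27342 probe sets, many without a gene symbol, was 20.7% (9.64% higher, 11.0% lower). The test was limma with Benjamini-Hochberg adjustment over all probe sets and a threshold of 0.05. With the high-scoring NHR arrays left out the count was 1 higher and 2 lower, against a background of 14.6%. The median difference of the 9 genes was -0.03, beside -0.02 for all 14324 genes. Every one of these differences was small, at most 1.26-fold, and in none of the 9 genes were the HHR and NHR arrays fully separated, as they were for 4.15% of probe sets.

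**Figure D1:**
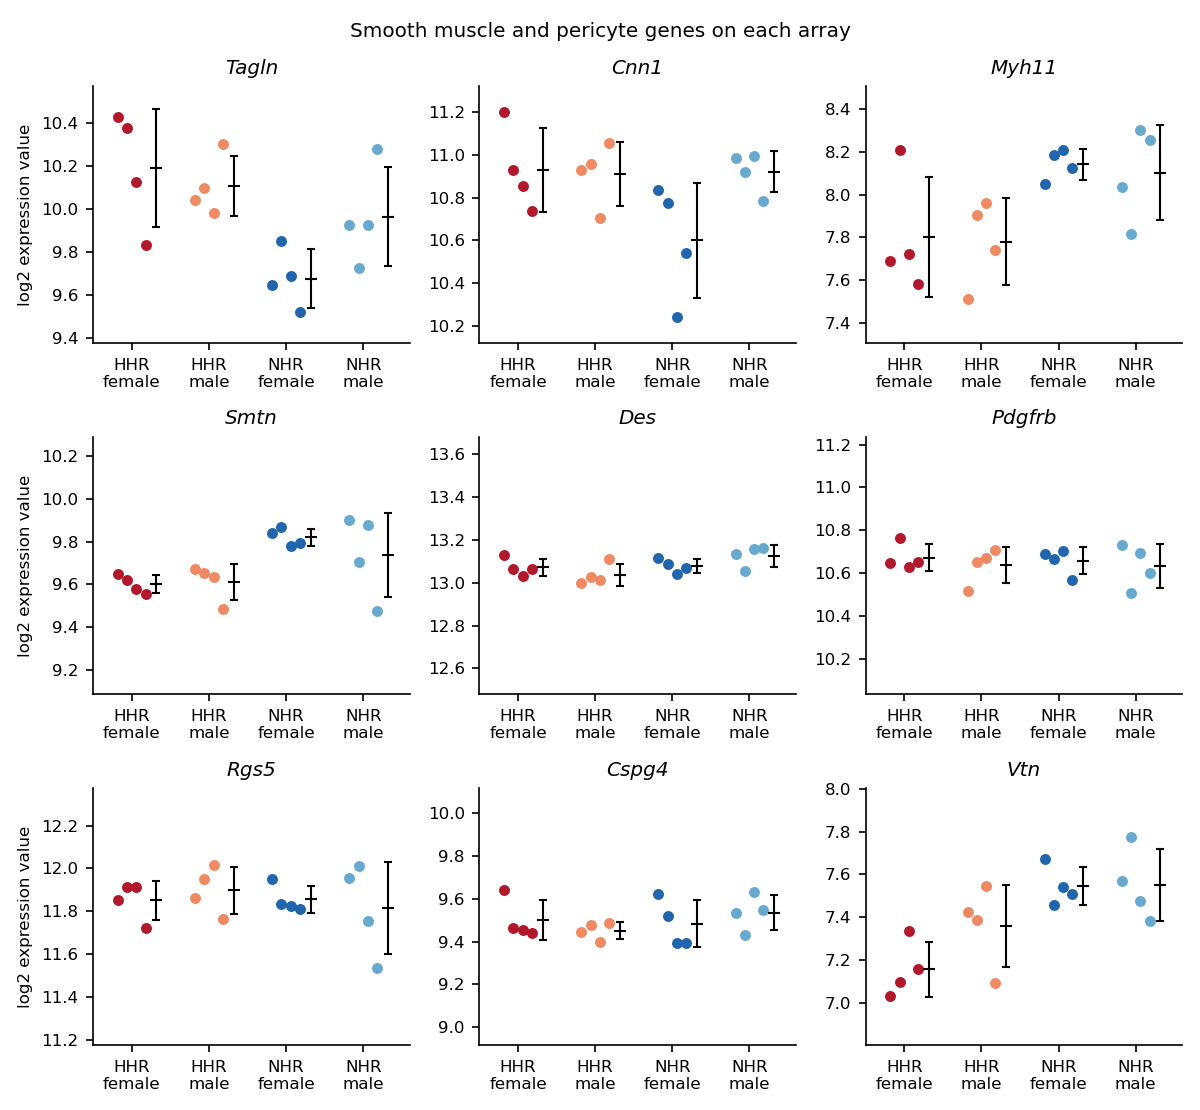
Log2 expression value (y axis, every panel spanning the same range) of the 9 measured genes on each of the 16 arrays, by group and in order of replicate number; bars are the group mean ± SD (n = 4). Tagln lies higher, and Myh11, Smtn and Vtn lie lower, in most HHR arrays, with overlap in each case.

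Tagln encodes transgelin, an actin-bundling protein and an early mark of smooth muscle. HHR females read 10.43, 10.38, 10.13 and 9.83 in order of replicate number, and HHR males 10.04, 10.10, 9.98 and 10.30. NHR females read 9.64, 9.85, 9.69 and 9.52, and NHR males 9.93, 9.73, 9.93 and 10.28. The strains overlapped: 3 of 8 HHR arrays exceeded NHR male 4, the highest of the NHR arrays, and 4 of 8 NHR arrays lay below the lowest HHR array. The Tagln mean was 10.15 ± 0.21 (SD, n = 8) for HHR against 9.82 ± 0.23 for NHR. The difference was 0.33 (SE 0.09, 95% confidence interval 0.14 to 0.52, limma adjusted p = 0.0158), a 1.26-fold higher level. Leaving out the high-scoring NHR arrays made it 0.35 (adjusted p = 0.0242). In females the difference was 0.52 (SE 0.13, adjusted p = 0.0148) and in males 0.14 (SE 0.13, adjusted p = 0.592), but the test of the difference between the sexes did not pass (-0.38, unadjusted p = 0.0535, limma adjusted p = 0.969). The call in females was lost without HHR female 1 (adjusted p = 0.0554), without NHR female 4 (adjusted p = 0.0541) and without the high-scoring NHR arrays (0.44, adjusted p = 0.0934).

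Cnn1 encodes calponin, which binds actin and slows the myosin motor. It ranged from 10.70 to 11.20 in HHR and from 10.24 to 10.99 in NHR. The lowest values were on NHR female 3 (10.24) and NHR female 4 (10.54), both among the NHR arrays apart, and NHR males lay within the range of HHR males. The difference was 0.16 (95% confidence interval -0.02 to 0.34, limma adjusted p = 0.197), and 0.03 (adjusted p = 0.82) without the high-scoring NHR arrays. In females it was 0.33 (adjusted p = 0.0824) and in males -0.01 (adjusted p = 0.98). Without NHR female 1 the difference in females was called (0.41, adjusted p = 0.0346). The test of that difference between the sexes gave -0.34 (unadjusted p = 0.0600, limma adjusted p = 0.981).

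Myh11 encodes the heavy chain of smooth muscle myosin, the motor of the contractile apparatus and a mark of mature smooth muscle. HHR females read 7.69, 8.21, 7.72 and 7.58, and HHR males 7.51, 7.91, 7.96 and 7.74. NHR females read 8.05, 8.18, 8.21 and 8.12, and NHR males 8.04, 7.82, 8.30 and 8.25. HHR female 2 lay among the NHR arrays, and 5 of 8 HHR values were under the NHR minimum. The Myh11 mean was 7.79 ± 0.23 (SD, n = 8) for HHR against 8.12 ± 0.15 for NHR, a fall of 1.26-fold (log2 difference -0.33, SE 0.09, 95% confidence interval -0.53 to -0.14, limma adjusted p = 0.0166). The differences in females (-0.34) and males (-0.32) were of like size, though neither passed alone (adjusted p = 0.101 and 0.174). The difference in females was called without HHR female 2 (-0.48, adjusted p = 0.0184). With the high-scoring NHR arrays left out the difference was -0.29 and was not called (adjusted p = 0.0942).

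Smtn encodes smoothelin, a cytoskeletal protein of contractile smooth muscle that is also made in striated muscle from the same gene. HHR females read 9.65, 9.62, 9.58 and 9.55, and HHR males 9.67, 9.65, 9.63 and 9.49. NHR females read 9.84, 9.87, 9.78 and 9.79, and NHR males 9.90, 9.70, 9.88 and 9.48. All NHR arrays except NHR male 4 lay above the highest HHR array, and NHR male 4 lay below the lowest. The Smtn mean was 9.61 ± 0.06 (SD, n = 8) for HHR against 9.78 ± 0.14 for NHR (log2 difference -0.17, SE 0.06, limma adjusted p = 0.0356), 1.13-fold lower. Without NHR male 4 the adjusted p was 0.00299, and without the high-scoring NHR arrays the difference was -0.23 (adjusted p = 0.00607). In females the difference was -0.22 (adjusted p = 0.0812) and was called without NHR male 4 (adjusted p = 0.024), after quantile normalization (-0.24, adjusted p = 0.046) and with array weights (-0.23, adjusted p = 0.0288). The call over both sexes was lost on centring each array (-0.15, adjusted p = 0.0717) and on leaving out any of 8 arrays. The adjusted p was 0.0518 with HHR female 2 or NHR female 1 left out, 0.0626 for HHR female 3, 0.0647 for HHR female 4, 0.0734 for HHR male 4, 0.0602 for NHR female 2, 0.0745 for NHR male 1 and 0.0777 for NHR male 3.

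Des encodes desmin, the intermediate filament of smooth and striated muscle. Its values varied little, from 13.00 to 13.13 in HHR and from 13.04 to 13.16 in NHR. The SD within groups was 0.044, beside a median of 0.118 over all probe sets, and 0.702% of probe sets had a smaller one. Des was also brighter than 99.3% of probe sets. The part of this brightness in its small spread and strain difference was not tested. The strain difference was -0.05 (95% confidence interval -0.12 to 0.03, limma adjusted p = 0.388), and 4 of 8 HHR values were under the NHR minimum. Cyclic loess normalization made it -0.11 (adjusted p = 0.0516), still short of the threshold. Of 13 cardiomyocyte markers 1 was higher and 8 lower (69.2% called, against 23.1% of all genes), with a median of -0.14. The higher one, Nppa, is also listed as an atrial marker. The mean level of the cardiomyocyte markers per array was 13.23 to 13.32 in HHR and 13.29 to 13.44 in NHR. The cell type behind the Des signal cannot be told apart in these bulk samples.

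The pericyte genes differed by less than the spread between arrays. Pdgfrb, the receptor that draws pericytes to vessels, ranged from 10.52 to 10.76 in HHR and from 10.51 to 10.73 in NHR (difference 0.01, 95% confidence interval -0.09 to 0.10, limma adjusted p = 0.915). Cspg4, the NG2 proteoglycan of pericytes and of immature smooth muscle, ranged from 9.40 to 9.64 and from 9.39 to 9.63 (difference -0.03, interval -0.13 to 0.07, adjusted p = 0.668). Rgs5, which shortens signalling through G proteins and is abundant in pericytes, ranged from 11.72 to 12.01 in HHR and from 11.54 to 12.01 in NHR. Its difference was 0.04 (interval -0.09 to 0.17, adjusted p = 0.708), and -0.02 (adjusted p = 0.842) without the high-scoring NHR arrays, whose member NHR male 4 held the lowest value. The signs for Pdgfrb and Rgs5 flipped under quantile normalization and cyclic loess. These intervals, which are not adjusted for the number of probe sets, reached a size of 0.10 in Pdgfrb, 0.13 in Cspg4 and 0.17 in Rgs5. They do not give the smallest change that the adjusted test would have called.

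Vtn encodes vitronectin, an adhesive glycoprotein made mostly by liver and also by pericytes, which binds integrins and the protease inhibitor PAI-1. HHR females read 7.03, 7.10, 7.33 and 7.16, and HHR males 7.42, 7.39, 7.54 and 7.09. NHR females read 7.67, 7.46, 7.54 and 7.51, and NHR males 7.57, 7.78, 7.48 and 7.38. The lowest value was on HHR female 1 and the highest on NHR male 2, and 5 of 8 HHR values were under the NHR minimum. The Vtn mean was 7.26 ± 0.19 (SD, n = 8) for HHR against 7.55 ± 0.13 for NHR, 1.22-fold lower (log2 difference -0.29, SE 0.07, limma adjusted p = 0.0071; -0.33 with the high-scoring NHR arrays left out, adjusted p = 0.0149). The difference was -0.39 in females (SE 0.10, adjusted p = 0.0164) and -0.19 in males (SE 0.10, adjusted p = 0.305), with an interaction of 0.20 (adjusted p = 0.994). The call in females was lost without HHR female 1 (-0.35, adjusted p = 0.0570) and without the high-scoring NHR arrays (-0.41, adjusted p = 0.0722). The values lay near the medians of the arrays, and 52.4% of probe sets were dimmer. Of 9 hepatocyte markers 1 was called higher (Ttr, 0.18, limma adjusted p = 0.0442) and 0 lower, with a median of 0.00 and mean levels per array of 5.76 to 5.92 in HHR and 5.76 to 5.96 in NHR; their part in the Vtn difference was not tested. The Ttr call was lost in 13 of 26 alternatives, among them the omission of any 1 of HHR female 2, 3 or 4, any HHR male, NHR female 2 or NHR male 1, 3 or 4 (adjusted p from 0.0524 to 0.0923).

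**Figure D2:**
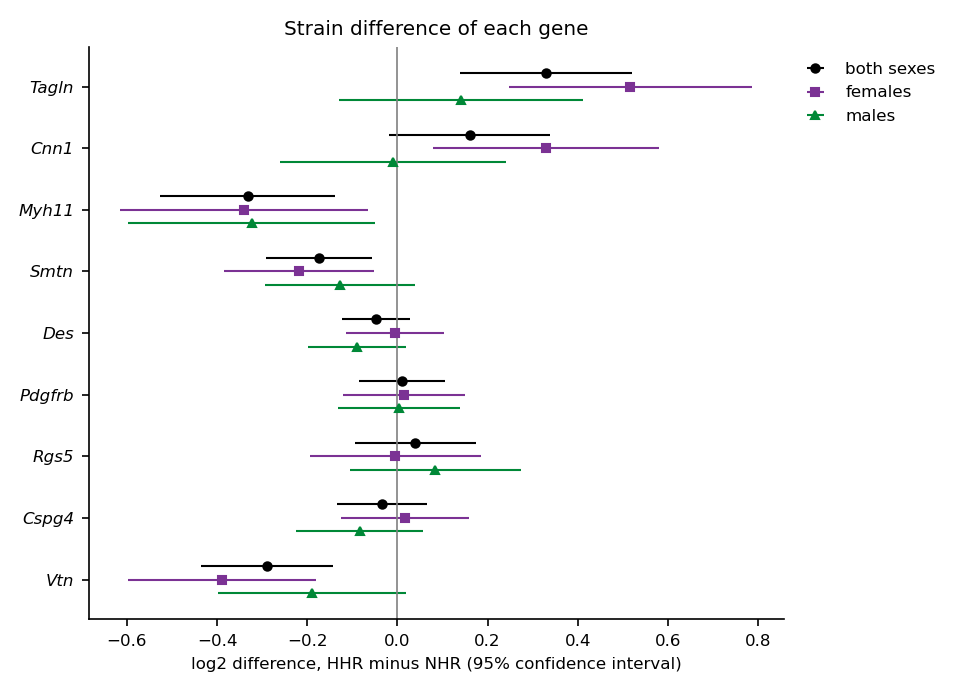
Log2 difference of HHR minus NHR (x axis) for the 9 genes over both sexes and within females and males; bars are 95% confidence intervals of the limma model. The intervals of Tagln, Myh11, Smtn and Vtn over both sexes exclude 0, and the female and male intervals overlap for every gene.

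Within females, 2 of the 9 genes passed (Tagln higher, Vtn lower), against 12.0% of all probe sets (5.78% higher, 6.21% lower). Within males 0 passed, against 4.02% (2.03% higher, 1.98% lower), and 1 of the 9 (Myh11) had an unadjusted p under 0.05 in that limma comparison. No gene of the set passed the limma test for a strain difference that varied with sex, where 0 of 27342 probe sets passed, 1390 had an unadjusted p under 0.05 and 0 of these were among the 9. None passed for sex either, where 3 probe sets passed (0.011%; 0.00366% higher in males, 0.00731% lower), 1749 had an unadjusted p under 0.05, and 0 of the 9 had an unadjusted p under 0.05. The estimated difference had the same sign in both sexes for 6 of the 9 genes, all except Cnn1, Rgs5 and Cspg4.

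**Figure D3:**
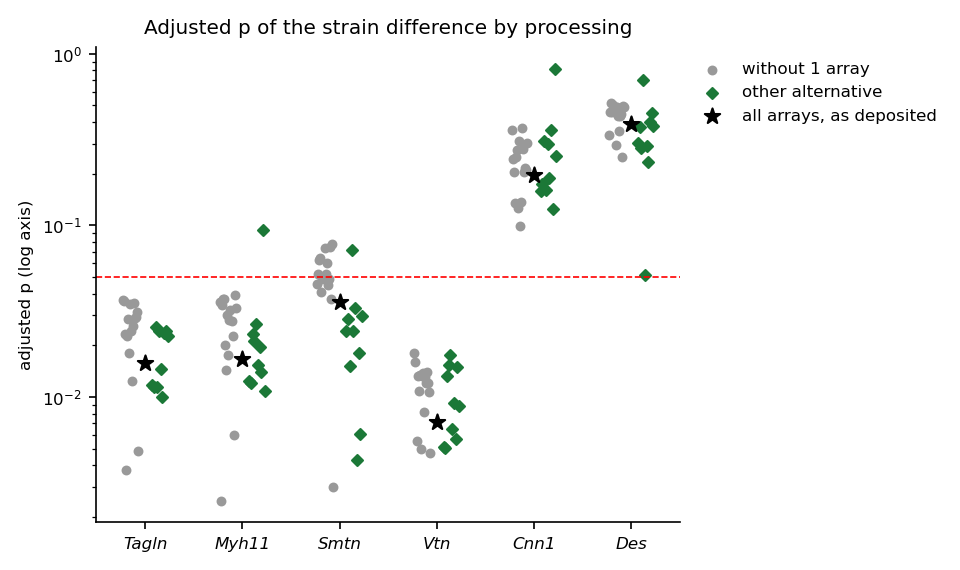
Adjusted p of the strain difference (log axis; dashed line, the threshold of 0.05) for 6 of the genes with all arrays as deposited, without each array in turn, and under the other alternatives. Tagln and Vtn stay under the line in all 26 alternatives, Myh11 in 25 and Smtn in 17; Cnn1 and Des stay above it in all 26.

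Whether the genes varied together from animal to animal was examined on deviations from the group means over the 16 arrays. Of 36 pairs, 22 had a positive Pearson r and the median r was 0.20. Des and Cspg4 varied together (r = 0.77, unadjusted permutation p = 4.1e-04, adjusted over the 36 pairs 0.0148; Spearman rho = 0.79, permutation p = 6.2e-04, adjusted 0.0223). The relation was present within HHR (r = 0.72) and within NHR (r = 0.83), and r was 0.80 without the 2 arrays farthest from the median of Des. Cnn1 and Cspg4 gave r = 0.78 (permutation p = 0.00426, adjusted 0.0593) and rho = 0.84 (permutation p = 0.0019, adjusted 0.0342). That pair had r = 0.93 within HHR, 0.69 within NHR, and 0.70 without the 2 arrays farthest for Cnn1. The 3 pairs of Vtn with the largest r did not pass by either measure. Rgs5 and Vtn gave r = 0.74 (permutation p = 0.00508, adjusted 0.0593; rho = 0.72, permutation p = 0.0103, adjusted 0.0743), and r = 0.64 without the 2 arrays farthest for Rgs5. Des and Vtn gave r = -0.77 (permutation p = 0.00824, adjusted 0.0593; rho = -0.76, permutation p = 0.0068, adjusted 0.0612), and r = -0.58 without the 2 farthest for Des. Tagln and Vtn gave r = -0.68 (permutation p = 0.00813, adjusted 0.0593; rho = -0.73, permutation p = 0.00456, adjusted 0.0547), and r = -0.77 without the 2 farthest for Tagln. Among the contractile genes, Tagln and Cnn1 gave r = 0.37 (permutation p = 0.18, adjusted 0.406; rho = 0.41, permutation p = 0.153, adjusted 0.393), with 0.84 within HHR and -0.08 within NHR. It was 0.46 without the 2 arrays farthest for Tagln. All values of an array share its normalization. With the high-scoring NHR arrays left out 2 pairs passed by Pearson, and without HHR female 1 or NHR female 2, 0 passed.

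**Figure D4:**
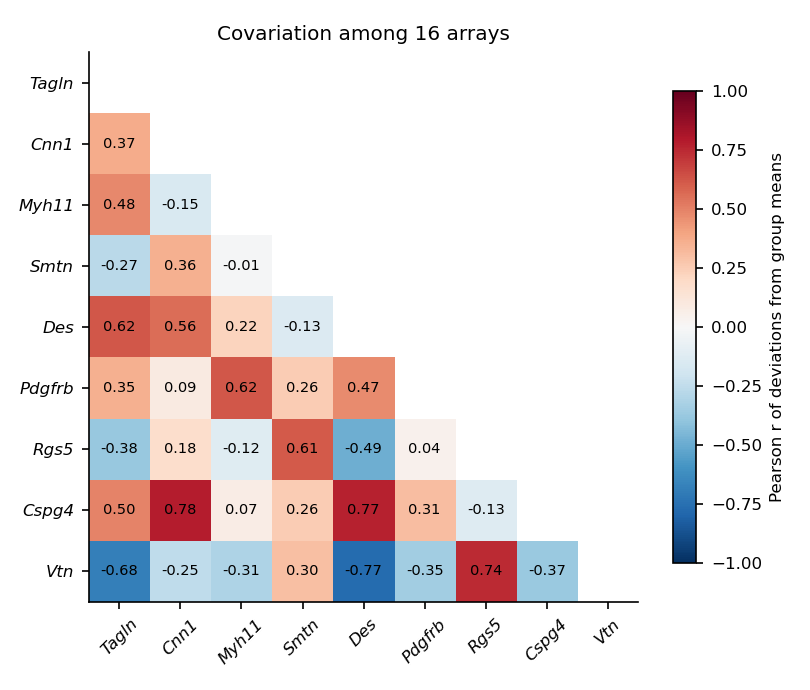
Pearson r of deviations from the group means over 16 arrays for each of the 36 pairs of measured genes (colour and printed value). The highest values are Cnn1 with Cspg4 (0.78) and Des with Cspg4 (0.77), and the lowest is Des with Vtn (-0.77).

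Related genes are given by list, beside the share over all 14324 genes, of which 23.1% passed the strain test (11.8% higher, 11.2% lower). Of 20 further measured genes of the smooth muscle contractile machinery, 4 were higher, 4 lower and 12 did not pass (8 of 20 called, against 23.1% of all genes), with a median of -0.07. Actg2, the gamma actin of visceral smooth muscle, rose by 0.35 (SE 0.06, limma adjusted p = 8.5e-04), from a range of 8.22 to 8.60 in NHR to 8.56 to 8.98 in HHR, and 7 of 8 HHR values exceeded the NHR maximum. Myl9, the regulatory light chain that pairs with Myh11, was higher by 0.15 (SE 0.04, adjusted p = 0.00968). The Myl9 call was lost after quantile normalization (0.09, adjusted p = 0.119) and cyclic loess (0.10, adjusted p = 0.0760). Itga7, a laminin receptor of smooth, cardiac and skeletal muscle, fell by 0.92 (SE 0.06, adjusted p = 1.4e-08), and all 8 HHR values were under the NHR minimum. Leaving out the high-scoring NHR arrays, the list gave 2 higher and 3 lower. The count higher was 1 after quantile normalization or cyclic loess and 2 with array weights, and the count lower was 8 with array weights. Leaving out single arrays gave 2 to 4 higher and 2 to 6 lower: 2 were higher without HHR female 1, HHR male 1, 2 or 4, NHR female 3 or NHR male 1 or 2, and 2 were lower without NHR female 4 or NHR male 3.

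Of 19 measured genes that regulate the smooth muscle programme, 5 were lower, 0 higher and 14 did not pass, with a median of -0.12. The share called, 26.3%, was near the 23.1% of all genes. Myocd, the myocardin gene, whose product is also present in heart muscle cells, fell by 0.23 (SE 0.04, limma adjusted p = 0.00135), and 6 of 8 HHR values were under the NHR minimum. Its partner Srf differed by 0.00 (SE 0.10, adjusted p = 0.993). Hey2, a repressor downstream of Notch in vessels and ventricular muscle, fell by 0.61 (SE 0.07, adjusted p = 3.7e-05), and all 8 HHR values were under the NHR minimum. Csrp2, a LIM protein of smooth muscle that assists serum response factor, fell by 0.29 (SE 0.07, adjusted p = 0.00699). Leaving out the high-scoring NHR arrays gave 4 lower and 1 higher. The count higher was also 1 with median centring, array weights or the replicate number as a block. It was 1 without NHR female 2 or NHR male 4 too.

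Of 21 further pericyte and mural cell genes 4 were higher and 1 lower, with a median of 0.10; the share called, 23.8%, was that of the background (23.1% of all genes). Enpep, the aminopeptidase A of pericytes, rose by 0.22 (SE 0.04, limma adjusted p = 0.00128), and all 8 HHR values exceeded the NHR maximum. Notch3, the mural cell Notch receptor, rose by 0.19 (SE 0.05, adjusted p = 0.00819) and P2ry14, a receptor for UDP sugars, fell by 0.50 (SE 0.08, adjusted p = 4.1e-04). In the absence of the high-scoring NHR arrays 2 were higher and 2 lower, the median was 0.03 and Notch3 was not called (adjusted p = 0.0668). Without NHR female 1, 7 were higher.

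Of the 6 PDGF ligands and receptors other than Pdgfrb, 2 were higher and 1 lower (3 of 6 called, against 23.1% of all genes). Pdgfb, the ligand made by endothelium that acts on Pdgfrb, differed by 0.10 (SE 0.06, limma adjusted p = 0.227). Pdgfc, a ligand of the alpha receptor, rose by 0.31 (SE 0.09, adjusted p = 0.0168), and Pdgfra, that receptor and a fibroblast marker, by 0.24 (SE 0.08, adjusted p = 0.0317). Pdgfd, a further ligand of Pdgfrb, fell by 0.22 (SE 0.06, adjusted p = 0.0185), and all 8 HHR values were under the NHR minimum. The Pdgfd call was lost on median centring (adjusted p = 0.0504) and cyclic loess (adjusted p = 0.0566). Once the high-scoring NHR arrays were left out, Pdgfc (adjusted p = 0.136) and Pdgfra (adjusted p = 0.123) were not called. Pdgfra also lost its call without any of HHR female 2 (adjusted p = 0.0685), 3 (0.0578) or 4 (0.0605), HHR male 2 (0.0532), 3 (0.0630) or 4 (0.0625), NHR female 2 (0.0538) or NHR male 3 (0.0676) or 4 (0.0628).

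Among 16 other RGS genes, the family of Rgs5, 2 were higher and 2 lower, a share near the 23.1% of all genes. Rgs2, which limits vasoconstrictor signals in smooth muscle, rose by 0.43 (SE 0.07, limma adjusted p = 3.2e-04), and 7 of 8 HHR values exceeded the NHR maximum. Rgs4, also listed as a mural gene, was higher by 0.21 (adjusted p = 0.0122) and Rgs12 lower by 0.24 on the log2 scale (-0.24, adjusted p = 0.0123). Both calls were lost without the high-scoring NHR arrays (adjusted p = 0.0683 and 0.0763). The 2 lower RGS genes became 1 with median centring, cyclic loess or quantile normalization, and on leaving out any 1 array except HHR female 1, HHR male 1, NHR female 3 or NHR male 4.

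The binding partners of vitronectin and the plasminogen system gave 1 higher and 2 lower of 7 measured (42.9% called, against 23.1% of all genes). Plat, tissue plasminogen activator, rose by 0.45 (SE 0.04, limma adjusted p = 2.4e-06), and all 8 HHR values exceeded the NHR maximum. Itgb5, a subunit of a vitronectin-binding integrin, fell by 0.19 (SE 0.04, adjusted p = 0.00258), and Plaur, the urokinase receptor, which binds vitronectin, by 0.21 (SE 0.05, adjusted p = 0.00345). In both genes all 8 HHR values were under the NHR minimum. These 3 calls stood without the high-scoring NHR arrays.

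Of 9 measured partners of desmin and other intermediate filament genes, 2 were higher and 3 lower (55.6% called, against 23.1% of all genes). Plec, the plectin that links desmin to other structures, fell by 0.37 (SE 0.05, limma adjusted p = 5.6e-05), and all 8 HHR values were under the NHR minimum. Nes, encoding nestin, fell by 0.35 (SE 0.07, adjusted p = 0.0023), and Fhl1, a LIM protein of muscle, was higher by 0.42 (SE 0.07, adjusted p = 7.9e-04). The counts were 1 higher and 3 lower with the high-scoring NHR arrays left out. The count higher was also 1 after quantile normalization or cyclic loess and without any of HHR female 1, 3 or 4, HHR male 2 or 3, NHR female 3 or 4, or NHR male 1 or 3.

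**Figure D5:**
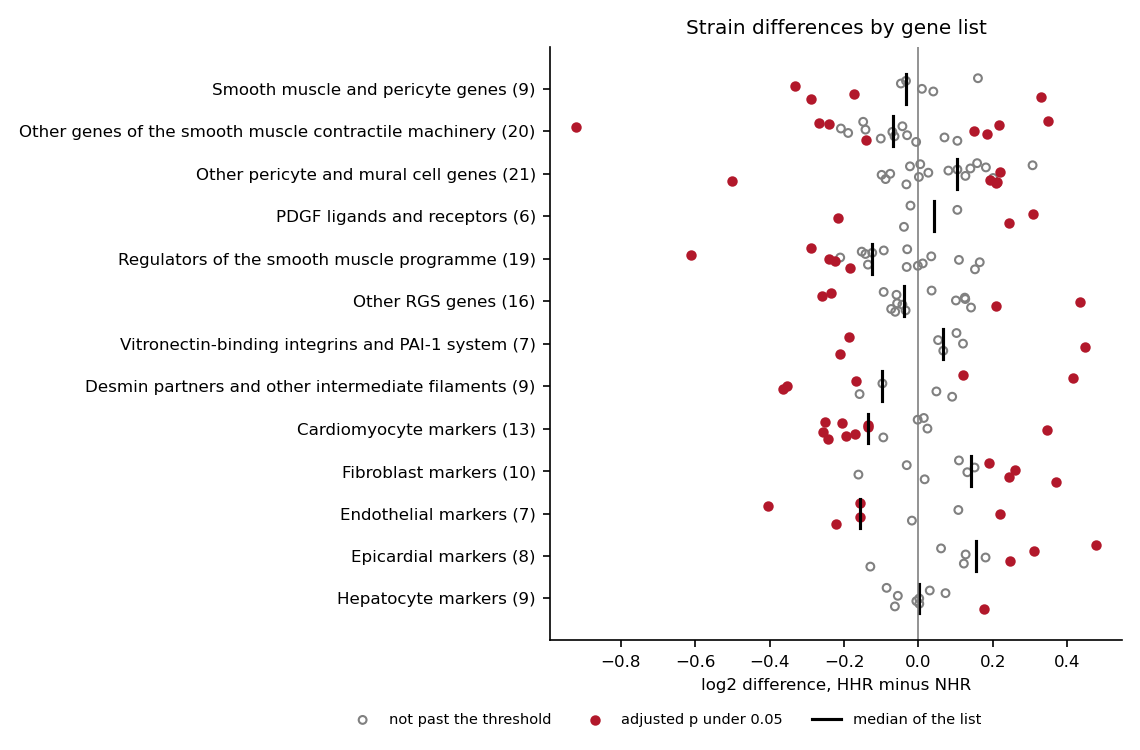
Log2 difference of HHR minus NHR (x axis) of each measured gene in 13 lists (number measured in brackets); filled points passed the limma test, open points did not, and the black bar is the median of the list. Among the lists plotted, which leave out the atrial, skeletal muscle, Schwann cell and leukocyte markers, medians run from -0.16 for endothelial to 0.15 for epicardial markers, with -0.03 for the smooth muscle and pericyte genes.

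Markers of other cells that could carry the same transcripts were called at shares from 0.0% (Schwann cells) and 11.1% (hepatocytes) to 71.4% (endothelium), against 23.1% of all genes. Of 10 fibroblast markers 4 were higher and 0 lower (median 0.14). These markers averaged 10.68 to 11.00 per array in HHR and 10.49 to 10.81 in NHR. Of 8 epicardial markers, whose cells give rise to coronary mural cells, 3 were higher and 0 lower (median 0.15), with 7.52 to 7.76 per array in HHR and 7.21 to 7.58 in NHR. Of 7 endothelial markers 1 was higher and 4 lower (median -0.16), with 10.28 to 10.36 per array in HHR and 10.35 to 10.48 in NHR. Of 6 atrial markers 4 were higher and 0 lower (median 0.43), with 10.30 to 11.07 per array in HHR and 9.72 to 10.39 in NHR. Leukocyte markers gave 1 higher and 1 lower of 8, skeletal muscle markers 0 and 1 of 6, and Schwann cell markers 0 and 0 of 4 by limma. With the high-scoring NHR arrays left out, cardiomyocyte markers gave 1 higher and 4 lower, fibroblast markers 3 and 0, epicardial markers 2 and 0, endothelial markers 1 and 3, atrial markers 4 and 0, and hepatocyte markers 0 and 0 by limma. The part of these cells in the differences of Tagln, Myh11, Smtn and Vtn was not tested. In these bulk samples fewer cells of a type and less RNA per cell cannot be told apart.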

How the data were processed

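RNA of 16 hearts (4 groups of 4) was hybridised to Affymetrix Rat Gene 1.0 ST arrays. The deposited values are log2 expression values made by the authors with RMA (background correction, normalization, probe set summary), per the submitters' processing notes; limma is listed there too, and for other settings the sources used here give none. The table held 27342 probe sets; 15097 had a single gene symbol in the platform annotation, 323 several and 11922 none. A probe set's signal also depends on how its probes match each strain's sequence, which was not tested.

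Group means were fitted with limma 3.58.1 in R 4.3.3 (empirical Bayes, Benjamini-Hochberg over all probe sets, threshold 0.05), and contrasts gave the strain difference (HHR minus NHR), its values within each sex, the interaction and the sex difference. Intervals are the model's 95% intervals. The fit was tested on simulated data. Covariation used 100000 resamples within groups. Each gene was represented by its brightest single-symbol probe set. All members were named, plus up to 3 called genes per list with the smallest adjusted p; Srf, Pdgfb and genes named by their signs were added after their values were seen. The members and lists were chosen with earlier results of these data known. Separate hearts are not stated to come from separate litters, so p-values measure the spread between these samples. Alternatives were a brightness filter (at least 4 arrays over the 40th percentile), single-symbol probe sets only, quantile normalization, median centring, cyclic loess, trended robust moderation, array weights, the replicate number as a block, pooled sexes, and leaving out single arrays or the 3 high-scoring NHR arrays.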

Additional observations from a re-analysis of the deposited data

Results flagged for a closer look

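Within groups of 4 arrays, the gap of the highest or lowest array to its nearest neighbour exceeded Dixon's critical value of 0.829 of the range in 7 of 192 tests (48 named genes in 4 groups), where chance gives about 1 in 20. Among the smooth muscle and pericyte genes, Rgs5 was high on NHR female 1 (11.95) and Cspg4 on HHR female 1 (9.64). Cspg4 on HHR female 1 goes with the highest Cnn1 and Tagln values of that group. P2ry14 was high on HHR female 4 (7.05), and Plaur on NHR female 4 (9.16). Hey2 (11.09) and Dpt (11.13), a matrix protein gene of fibroblasts, were low on NHR male 4. Ttr, the thyroxine carrier, was low on NHR female 2 (7.52).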

How the results depend on the processing

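Over both sexes, Tagln and Vtn kept their call and direction in all 26 alternatives, Myh11 in 25 and Smtn in 17. The count of genes of the set called stayed at 3 or 4 when single arrays were left out. Among all probe sets, the strain count ran from 4651 to 6402 without single arrays. In females it ran from 1830 to 3761 and was 1238 without the high-scoring NHR arrays. In males it ran from 489 to 2026, and was 2035 with array weights. The interaction count was 0 to 1, and the sex count 5 with array weights and 0 without the high-scoring NHR arrays. Of the 9 genes, 0 to 3 were called in females without single arrays and 0 without the high-scoring NHR arrays. Covarying pairs numbered 0 to 3 without single arrays and 2 without the high-scoring NHR arrays. The cause of these moves was not tested.

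The replicate number does not pair the samples by the labels. Even so, 11 of 24 same-numbered pairs had deviations correlated above 0.1 (range -0.11 to 0.37), and 9 of 16 arrays correlated best with their own number. The median r was 0.09 for same-numbered pairs, against -0.03 for the other pairs of arrays from different groups. The main model does not include the replicate number. With the replicate block the strain count was 6145, and 4 of the 9 genes were called in females, Cnn1 (adjusted p = 0.0413) and Smtn (adjusted p = 0.0447) in addition to Tagln and Vtn. The Ttr call was lost (adjusted p = 0.0602).

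Direction turned only for small differences that were not called with all arrays as deposited. The largest of these were for Rgs5, 0.08 in males and 0.09 for the interaction. Without single arrays, Pdgfrb ran from -0.01 to 0.03 over both sexes, -0.02 to 0.03 in females, -0.04 to 0.04 in males and -0.05 to 0.03 for the interaction. Rgs5 ran from -0.01 to 0.07, -0.03 to 0.04, -0.01 to 0.15 and -0.004 to 0.15, and from -0.03 to 0.05 for sex. Cspg4 ran from -0.03 to 0.06 in females and -0.01 to 0.02 for sex, Des from -0.02 to 0.01 and -0.01 to 0.02, Cnn1 from -0.06 to 0.06 in males, Myh11 from -0.08 to 0.15 for the interaction and -0.07 to 0.04 for sex, and Smtn from -0.06 to 0.01 for sex. Over both sexes, Pdgfrb turned to -0.01 (quantile normalization), -0.02 (cyclic loess and array weights) and -0.01 (without the high-scoring NHR arrays), and Rgs5 to -0.02, -0.0026 (cyclic loess) and -0.02. In females, Pdgfrb turned to -0.02 (quantile, cyclic loess) and -0.01 (without the high-scoring NHR arrays), Des to 0.03 and Rgs5 to 0.03 (median centring), Rgs5 to 0.01 (array weights), and Cspg4 to -0.0024 (quantile), -0.02 (array weights) and -0.07 (without the high-scoring NHR arrays). In males, Cnn1 turned to 0.0049 (median centring), Pdgfrb to -0.01 (quantile, cyclic loess, without the high-scoring NHR arrays) and -0.04 (array weights), and Rgs5 to -0.01 (without the high-scoring NHR arrays). For the interaction, Myh11 turned to -0.02 (quantile) and -0.003 (cyclic loess), and Pdgfrb to 0.00085 and 0.01. For sex, Smtn turned to 0.00036 (array weights), Des to -0.01 (median centring, without the high-scoring NHR arrays) and -0.004 (cyclic loess), Rgs5 to -0.01 (quantile, median centring, cyclic loess), and Cspg4 to -0.01 (quantile, median centring), -0.02 (cyclic loess) and -0.04 (without the high-scoring NHR arrays). Each gene measured had 1 probe set, so no second probe set could be tried. Background signal was not analysed here, and 4 arrays a group limit precision.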
